A study of Rattus norvegicus with 8 samples.

Results

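Reversible protein phosphorylation was followed through 4 genes in the adult rat medial prefrontal cortex after fluoxetine in early life. The genes were Ppp2r2b and Ppp1r12a, which encode regulatory subunits of protein phosphatases, and the protein kinases Cdk17 (named Pctk2 in the authors' sheets) and Abl1. They were chosen by the measured PNFLX values of the authors' deposited tables of changed genes, which list them. Those tables hold 450 of the 15207 probes of the value table (2.96%), and 5 of the 450 belong to these 4 genes, 2 of them to Ppp2r2b. A probe was listed when its mean PNFLX value lay at least 0.4 (log2) from the CONTROL median with an unadjusted p of at most 0.05. The choice therefore used the contrast of PNFLX with CONTROL on these same arrays, and the differences below describe it and are no test of it. On GRCr8, RefSeq places Ppp2r2b at chr18:34904686-35357299, Ppp1r12a at chr7:45368922-45480158, Cdk17 at chr7:29570982-29677613 and Abl1 at chr3:35377587-35480843.

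The arrays measured whole medial prefrontal cortex of rats aged 6 months, with 4 arrays per group. Rats of the PNFLX group were given 10 mg/kg of fluoxetine, which blocks the reuptake of serotonin, from postnatal day 2 to postnatal day 21. The CONTROL group had received the vehicle, a 5% sucrose solution, over the same days. The free-text descriptions of CONTROL 2, 3 and 4 mention fluoxetine, while their titles and source names call them control, and the titles were followed. No label ties each array to an animal of its own, and sex and litter are not stated in the labels used here. Every SD and SE below thus measures the spread between arrays, which may be technical, and the number of arrays limits the precision. PNFLX 2 and CONTROL 1 differed from all other arrays in their overall values (first principal component scores 0.52 for PNFLX 2 and 0.68 for CONTROL 1, against -0.29 to -0.09), so values are also given without them. Gene names were at hand only for listed probes, so a marker that is not named may still be on the array. Of 8 neuronal markers looked for, 0 were among the named probes, so the labelled tissue was not checked here against them. Markers of astrocytes, oligodendrocytes, microglia, blood and choroid plexus were not among the named probes either, and of 5 striatal markers 1 was, Adcy5 (1.02 ± 0.28, log2, PNFLX minus CONTROL, SE), whose part in the results was not tested.

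Protein phosphatases gain their substrates through regulatory subunits. Protein phosphatase 2A is assembled from a catalytic, a scaffold and an exchangeable regulatory subunit, and Ppp2r2b encodes the B55 beta regulatory subunit, which is found mainly in neurons. Ppp1r12a encodes the myosin phosphatase targeting subunit, which brings the catalytic subunit of protein phosphatase 1 to myosin. Cdk17 is a PCTAIRE kinase, a relative of the cyclin-dependent kinases that is abundant in brain. Abl1 is a non-receptor tyrosine kinase that acts on the actin cytoskeleton and on the response to DNA damage.

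The 3 phosphatase probes and Abl1 were listed as higher in PNFLX and Cdk17 as lower. Changes ran from 7.13 ± 0.53 for probe 1 of Ppp2r2b to -5.78 ± 1.32 for Cdk17 (log2, PNFLX minus CONTROL, SE from limma, n = 4 per group). In whole tissue, fewer cells of a type and less RNA per cell cannot be told apart. Of the 5 probes, 1 was past an adjusted p of 0.05 in limma, probe 1 of Ppp2r2b, against 0.118% of all probes (0.0592% as higher and 0.0592% as lower). The groups did not overlap in 2 of the 5, probe 1 of Ppp2r2b and Ppp1r12a, against 2.32% of all probes (1.18% with PNFLX higher). Among the 450 listed probes, from which the members come, 284 had groups that did not overlap. As the members were taken from this contrast, nothing is read from either count. Over all probes limma called 9 as higher and 9 as lower, with 2 and 8 after quantile normalization and 3 and 1 with array 75th percentiles set equal.

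Probe 1 of Ppp2r2b carried the largest change in size of the 15207 probes. Its background-subtracted signal was 1783, 1921, 2519.7 and 2371 intensity units on PNFLX 1 to 4, against 44.4, 14.6, 6.81 and 6.94 on CONTROL 1 to 4. All 4 PNFLX arrays lay within a narrow band far above every CONTROL array. Relative to the CONTROL median of the probe, the log2 values were 7.32 ± 0.37 in PNFLX and 0.20 ± 1.03 in CONTROL (SD, n = 4 each). CONTROL 1 was the highest CONTROL array, at 1.58, with the other 3 CONTROL arrays between -0.79 and 0.31. CONTROL 1 was also the array with the highest lowest signal among listed probes, 14.9, against 1.14 to 9.09 on the PNFLX arrays and 2.38 to 2.80 on the other CONTROL arrays. The part of that in the result was not tested.

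The CONTROL signals of this probe were near the bottom of their arrays. Between 2.67% and 17.8% of the 450 listed probes had a lower signal on the same CONTROL array, against 87.8% to 91.6% on the PNFLX arrays. Detection flags were not used here, so the size of the change depends on how the dim CONTROL signals are treated. With scaled signals raised to a floor of 20 the difference was 6.41 (log2), and with a floor of 50 it was 5.31, a fold of 39.6 in place of 140. Without PNFLX 2 and CONTROL 1 it was 7.77, and PNFLX 2 minus CONTROL 1 alone, 1 array each, was 5.19. limma called the probe in 6 of 8 fits that each left out 1 array, and not without PNFLX 4 or without CONTROL 2. The call was also lost with the array numbers as a block and with a variance trend, so it stood in 15 of 19 alternatives.

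Probe 2 of Ppp2r2b differed far less. Its signal was 2324, 2332, 2691 and 2539 on PNFLX 1 to 4, against 1342, 1088, 1724 and 1268 on CONTROL 1 to 4. These unscaled signals did not overlap between the groups, as in 253 of the 450 listed probes (56.2%). After the authors' array scaling they did, because PNFLX 2, at 0.19 (log2), fell within the CONTROL range of -0.36 to 0.33. The other 3 PNFLX arrays, at 0.77 to 0.92, lay above all CONTROL arrays. The group values were 0.67 ± 0.33 in PNFLX and -0.01 ± 0.39 in CONTROL (SD, n = 4 each), a difference of 0.68 ± 0.31 (SE). Of all probes, 22.0% had a difference at least as large in either direction, the probe itself included, as in each such share here.

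The 2 probes of Ppp2r2b thus gave changes of different size for 1 gene. Probe 1 minus probe 2, both as log2 differences from their own CONTROL medians, was 6.48, 6.59, 6.77 and 6.77 on PNFLX 1 to 4 and 1.95, 0.64, -1.12 and -0.65 on CONTROL 1 to 4. The gap between the probes was nearly constant over the PNFLX arrays and varied over the CONTROL arrays, where probe 1 was dim. The means were 6.65 ± 0.14 in PNFLX and 0.21 ± 1.38 in CONTROL (SD, n = 4 each). Pooled over both groups, Pearson r was -0.42 between their deviations from the group means (8 arrays), but the groups differed. On the PNFLX arrays both probes were lowest on PNFLX 2, at 6.78 for probe 1 and 0.19 for probe 2 (log2). In CONTROL they ran in opposite directions, with probe 1 highest (1.58) and probe 2 lowest (-0.36) on CONTROL 1. The sheets give no probe sequence, and which transcripts each probe reads was not analysed here. Any call for Ppp2r2b therefore rests on 1 probe.

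**Figure D1:**
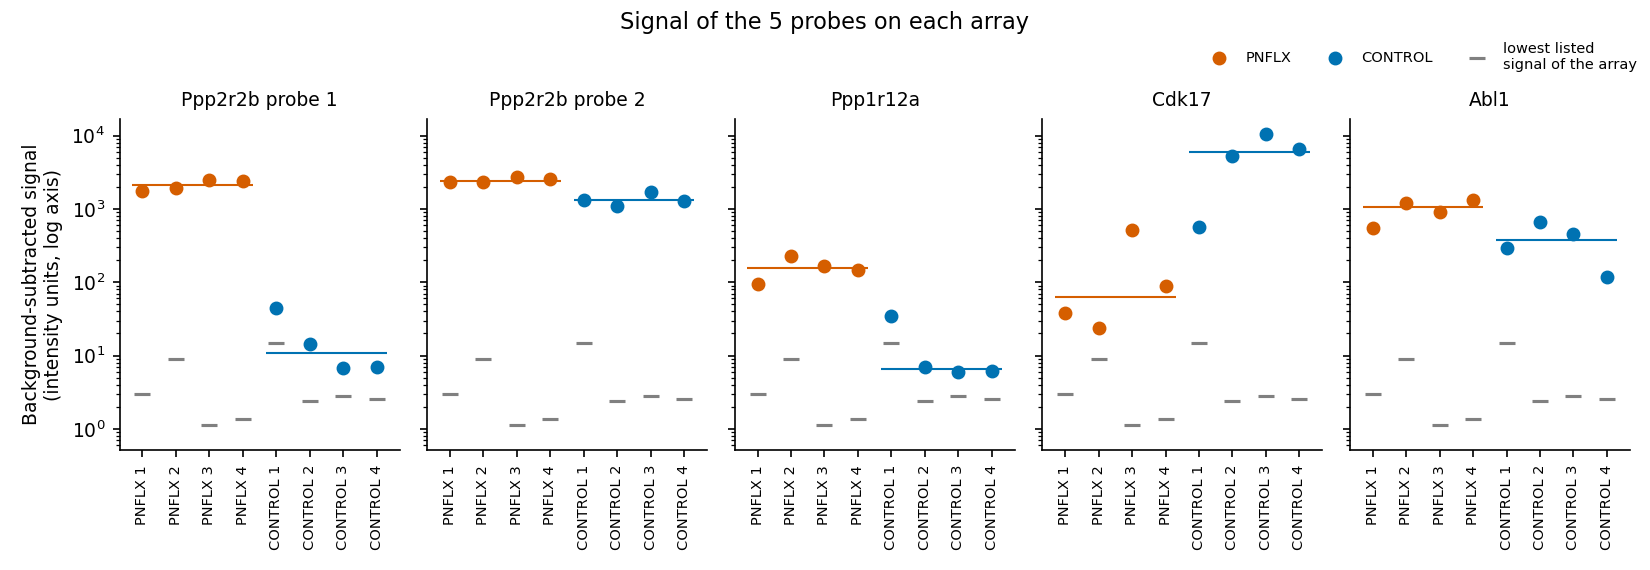
Background-subtracted signal (intensity units, log axis) of each of the 5 probes on the 4 PNFLX and 4 CONTROL arrays, with a horizontal line at each group's median and grey dashes at the lowest signal of any listed probe on that array. Probe 1 of Ppp2r2b had a median of 2146 in PNFLX and 10.8 in CONTROL, while probe 2 had 2436 in PNFLX and 1305 in CONTROL.

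Ppp1r12a, the myosin phosphatase targeting subunit, was the other phosphatase gene and was dim in CONTROL as well. Its signal was 94.7, 225, 167 and 146 on PNFLX 1 to 4, against 35.0, 6.87, 5.99 and 6.18 on CONTROL 1 to 4. Every PNFLX array lay above every CONTROL array, and CONTROL 1 again stood highest in its group. In log2 relative to the CONTROL median the values were 4.13 ± 0.24 in PNFLX and 0.38 ± 1.01 in CONTROL (SD, n = 4 each), a difference of 3.75 ± 0.51 (SE), with 0.276% of all probes at least as far from 0. The PNFLX signals lay in the middle of the listed probes (44.2% to 49.3% of them had a lower signal on the same array), and the CONTROL signals low (1.78% to 15.3%). With a signal floor of 20 the difference was 2.68, and with a floor of 50 it was 1.49, so the fold was 2.81 in place of 13.5. Without PNFLX 2 and CONTROL 1 it was 4.19, and PNFLX 2 minus CONTROL 1 was 2.44. limma called the probe in 6 of 19 alternatives: without CONTROL 1, without both PNFLX 2 and CONTROL 1, with these arrays as a block, with array weights, with equal array medians and at a threshold of 0.1.

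Myosin phosphatase is also known from vascular smooth muscle, so markers of vessels were looked for. Of 5 smooth muscle markers (Acta2, Myh11, Tagln, Cnn1 and Myl9), 0 were among the named probes. Of 5 endothelial and pericyte markers, Rgs5 (-3.06 ± 0.77, log2, SE) and Cldn5 (-0.57 ± 0.29) were named, both listed as lower in PNFLX, against Ppp1r12a, which was listed as higher. Their part in the result for Ppp1r12a was not tested.

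Starts annotated for the phosphatase genes and Abl1 are shown because Ppp2r2b has several and its probes disagree. These 3 genes were also listed in the same direction. The RefSeq promoter table used here (GRCr8) holds 5 windows for 3 of the 4 genes: 3 for Ppp2r2b, 1 for Ppp1r12a and 1 for Abl1. The RefSeq spans of Ppp2r2b (to chr18:35357299) and Ppp1r12a (from chr7:45368922) reach further upstream than these starts, so not every start may be shown. Each line holds the 250 bases before a start, 5′ to 3′. Capitals mark a match on either strand to CCAAT (the CCAAT box), to GGGCGG (the GC box), to TGACG (the core of the cAMP response element) or to TATAAA (the TATA box).
Ppp2r2b start 1, chr18:35331616-35331865, minus strand: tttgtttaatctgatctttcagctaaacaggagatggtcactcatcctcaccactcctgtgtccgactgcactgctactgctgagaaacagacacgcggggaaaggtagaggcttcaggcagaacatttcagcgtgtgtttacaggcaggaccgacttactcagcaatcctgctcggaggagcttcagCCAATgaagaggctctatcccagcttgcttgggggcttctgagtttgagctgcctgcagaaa
Ppp2r2b start 2, chr18:35203015-35203264, minus strand: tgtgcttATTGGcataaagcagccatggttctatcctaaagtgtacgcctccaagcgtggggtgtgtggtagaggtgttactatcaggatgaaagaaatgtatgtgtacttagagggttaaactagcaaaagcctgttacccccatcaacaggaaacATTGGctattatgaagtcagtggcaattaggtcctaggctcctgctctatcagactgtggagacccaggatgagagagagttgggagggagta
Ppp2r2b start 3, chr18:35165017-35165266, minus strand: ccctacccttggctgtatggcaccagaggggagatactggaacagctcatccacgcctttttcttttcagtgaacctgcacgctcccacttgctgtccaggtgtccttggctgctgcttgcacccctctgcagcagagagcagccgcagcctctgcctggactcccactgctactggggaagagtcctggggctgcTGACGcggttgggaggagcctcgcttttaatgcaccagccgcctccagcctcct
Ppp1r12a, chr7:45369194-45369443, plus strand: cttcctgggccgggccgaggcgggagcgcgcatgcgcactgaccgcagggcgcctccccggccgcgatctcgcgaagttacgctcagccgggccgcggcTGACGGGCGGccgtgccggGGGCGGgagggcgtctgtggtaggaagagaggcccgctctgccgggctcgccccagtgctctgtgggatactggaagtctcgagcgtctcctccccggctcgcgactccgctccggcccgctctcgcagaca
Abl1, chr3:35377337-35377586, plus strand: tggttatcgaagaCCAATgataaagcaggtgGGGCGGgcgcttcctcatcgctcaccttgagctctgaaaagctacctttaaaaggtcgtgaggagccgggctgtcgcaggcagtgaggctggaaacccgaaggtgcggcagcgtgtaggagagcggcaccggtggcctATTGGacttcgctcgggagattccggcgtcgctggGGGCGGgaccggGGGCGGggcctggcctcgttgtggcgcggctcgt

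Start 3 of Ppp2r2b and the start of Ppp1r12a each held 1 TGACG, which 18.2% of all 33469 windows of this length held. The TGACG of Ppp1r12a shares its last base with the first base of a GGGCGG. This GC box occurred 2 times before Ppp1r12a, 3 times before Abl1 and in none of the 3 Ppp2r2b windows, against 30.5% of all windows. CCAAT occurred in starts 1 and 2 of Ppp2r2b and before Abl1 (34.0% of all windows), and TATAAA in none of the 5 (12.9% of all windows). The windows of Ppp2r2b were 51.2%, 46.4% and 60.8% G and C for starts 1, 2 and 3, that of Ppp1r12a 74.4% and that of Abl1 64.0%. A match of letters describes the window and is no evidence of a bound factor, and the arrays do not show which start was used.

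Among the kinases, Cdk17 was listed as lower in PNFLX, with the larger difference and wide spread in both groups. Its signal was 38.0, 23.6, 509 and 88.7 on PNFLX 1 to 4, against 566, 5291, 10504 and 6651 on CONTROL 1 to 4. PNFLX 3 and CONTROL 1 approached each other, while the other PNFLX arrays lay below all CONTROL arrays by a wide margin. On the scaled log2 values these 2 arrays met, with PNFLX 3 at -3.93 and CONTROL 1 at -3.95, so the groups overlapped. The means were -6.62 ± 2.04 in PNFLX and -0.84 ± 2.12 in CONTROL (SD, n = 4 each), and the difference was -5.78 ± 1.32 (SE), with 0.0526% of all probes at least as far from 0. Its spread within groups, 2.08 (log2), was wider than that of 85.3% of all probes, against 45.0% for probe 1 of Ppp2r2b and 43.6% for Ppp1r12a. Only with CONTROL 1 and PNFLX 2 taken as a block, or with array weights, did limma call Cdk17 among the 19 alternatives.

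Left out 1 at a time, the arrays moved the difference of Cdk17 between -6.82 and -5.06. Without both PNFLX 2 and CONTROL 1 it was -6.10, and PNFLX 2 minus CONTROL 1 was -4.83. With a signal floor of 50 the difference was -5.34. The lowest PNFLX signal, 23.6 on PNFLX 2, stood above 12.4% of the listed probes of that array, and its array had a lowest listed signal of 9.09.

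Abl1 was listed in the other direction from Cdk17, with a smaller difference. Its signal was 553, 1211, 913 and 1314 on PNFLX 1 to 4, against 296, 658, 453 and 118 on CONTROL 1 to 4. PNFLX 1 lay below CONTROL 2, and the other 3 PNFLX arrays lay above all CONTROL arrays. In log2 the values were 1.36 ± 0.40 in PNFLX and 0.00 ± 0.92 in CONTROL (SD, n = 4 each), a difference of 1.36 ± 0.49 (SE), with 5.72% of all probes at least as far from 0. Without CONTROL 4, the lowest array, the difference was 1.02, and without CONTROL 2, the highest CONTROL array, it was 1.70. No alternative called Abl1 or probe 2 of Ppp2r2b.

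By their p-values, these 2 probes were the members nearest to the limit of the authors' criteria. The authors' deposited table gives an unadjusted p of 0.0373 for probe 2 of Ppp2r2b and of 0.0345 for Abl1, at mean PNFLX values of 0.67 and 1.36 (log2). For the other members it gives 1.26e-05 (probe 1 of Ppp2r2b), 0.000359 (Ppp1r12a) and 0.00769 (Cdk17). The largest p in the sheets was 0.0498 and the smallest mean 0.41, and probes of these genes just outside the criteria are not named in the sources used here.

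Set against each other on each array, the phosphatase subunits were separated between the groups and the kinases were not. The mean of Ppp2r2b (its probes averaged) and Ppp1r12a was 3.97, 3.89, 4.25 and 4.15 on PNFLX 1 to 4 and 1.24, -0.08, -0.29 and 0.08 on CONTROL 1 to 4 (log2 from the CONTROL median). The groups did not overlap. The mean of Cdk17 and Abl1 was -3.22, -3.73, -1.30 and -2.26 in PNFLX and -2.21, 0.31, 0.53 and -0.32 in CONTROL. There CONTROL 1 lay within the PNFLX range.

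Phosphatase subunits minus kinases came to 6.69 ± 0.91 in PNFLX and 0.66 ± 1.93 in CONTROL (SD, n = 4 each), a difference of 6.04 ± 1.07 (SE). The lowest PNFLX array was PNFLX 3, at 5.55, and the highest CONTROL array was CONTROL 1, at 3.45, with the other CONTROL arrays at -0.82 to 0.40. The sheets from which the genes were taken fix the direction of this contrast. Its size varied with the probes used: it was 9.61 with Cdk17 as the only kinase and 2.47 with Abl1 as the only kinase, and 7.65 or 4.43 with Ppp2r2b taken from probe 1 or probe 2 alone. The kinases had no common direction, and Cdk17 minus Abl1 ranged from -10.09 to -5.25 on the PNFLX arrays and from -3.47 to 1.41 on the CONTROL arrays.

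**Figure D2:**
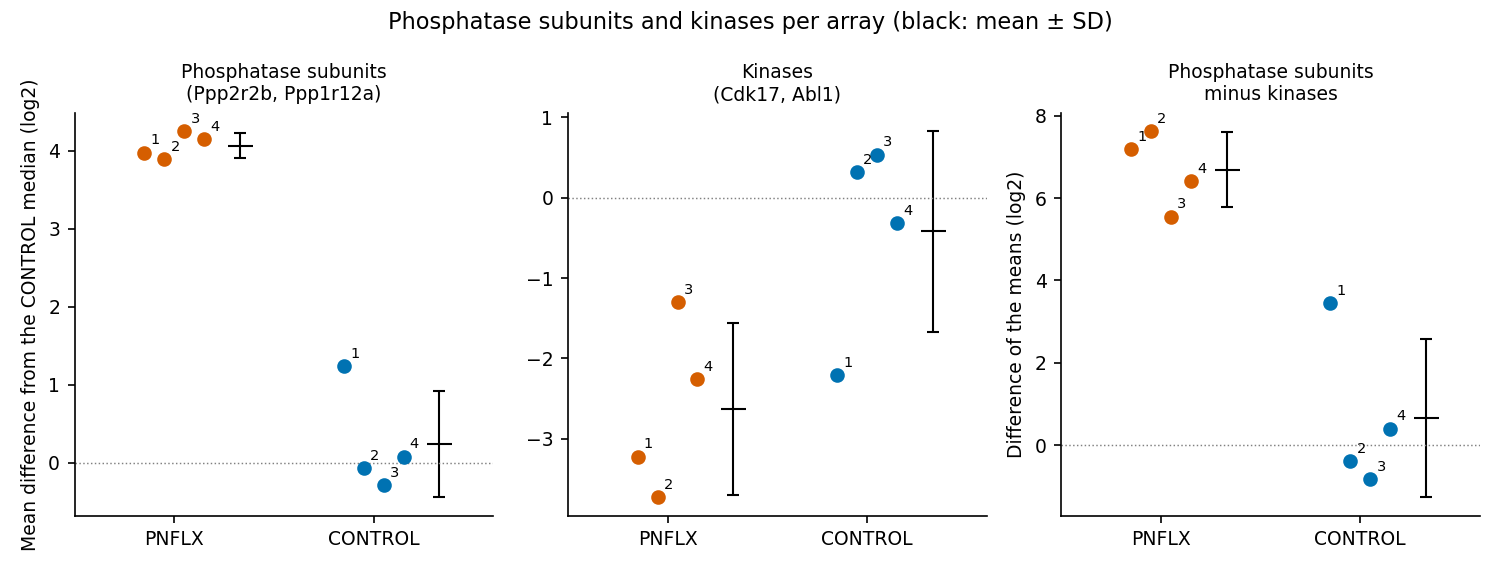
Mean log2 difference from the CONTROL median for the phosphatase subunits (Ppp2r2b with its probes averaged, and Ppp1r12a) and the kinases (Cdk17 and Abl1), and the difference of the 2 means, on each PNFLX and CONTROL array. Points carry the array number and black bars give mean ± SD. CONTROL 1 stood nearest to the PNFLX arrays in all 3 panels.

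With a signal floor of 50, Ppp1r12a, at 1.49, came close to Abl1, at 1.36. No alternative turned the sign of any member, which the choice from this same contrast had largely fixed. The ranges over 18 settings were 5.31 to 7.89 for probe 1 of Ppp2r2b, 0.56 to 0.84 for its probe 2, 1.49 to 4.28 for Ppp1r12a, -6.88 to -5.06 for Cdk17 and 1.02 to 1.70 for Abl1.

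**Figure D3:**
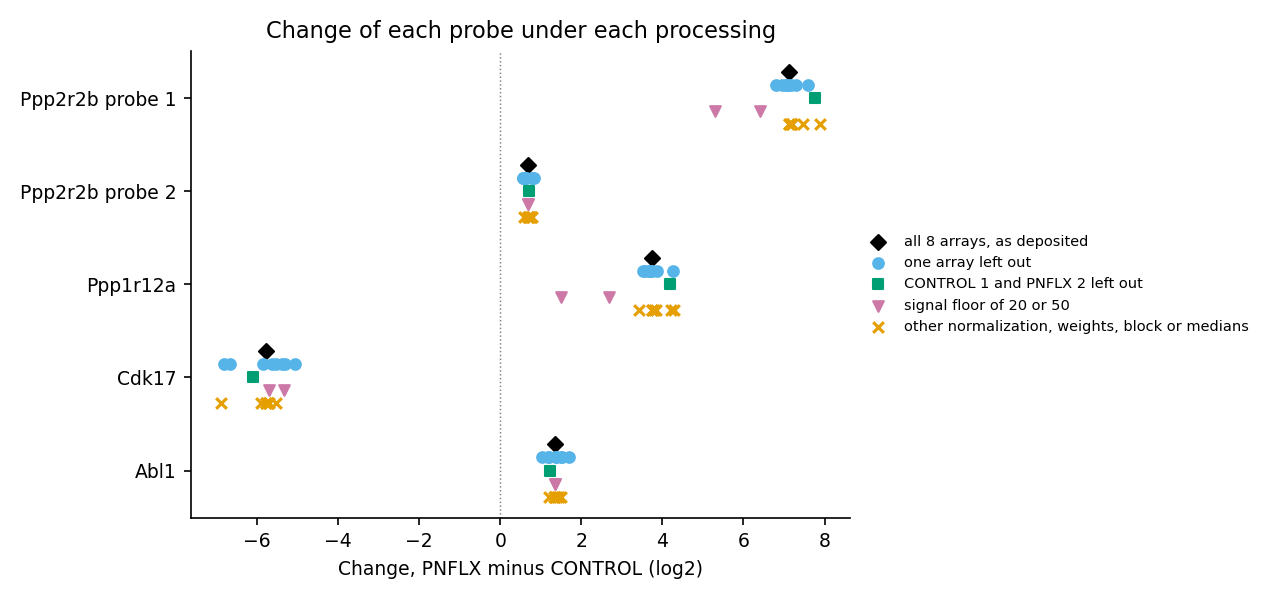
Change of each member probe (PNFLX minus CONTROL, log2) with all 8 arrays as deposited, with single arrays left out, without CONTROL 1 and PNFLX 2, with signal floors, and with other normalizations, weights, blocks or group medians. The floors moved the probes that were dim in CONTROL, Ppp2r2b probe 1 and Ppp1r12a, most, Cdk17 little (to -5.34 at a floor of 50), and left Abl1 and Ppp2r2b probe 2 at their values.

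Other genes of the same enzyme families were listed in both directions. The 4 phosphatase lists (subunits of protein phosphatases 2A and 1, other serine and threonine phosphatases, and tyrosine and dual-specificity phosphatases) had 11 listed probes, 6 as higher and 5 as lower. Apart from the members, 3 were higher and 5 lower. The median change of the 11 was 0.58 (log2), against 0.02 over all 450 listed probes and -0.07 over all 15207 probes. That sign rests on the members, which were taken as higher: without them the median was -0.65 over the other 8 phosphatase probes and -0.37 over the other 445 listed probes. The listing left out small changes, so the sign of such a median follows the counts in each direction (221 higher and 224 lower of the 445). It shows no shift of the listed probes, and the 15207 probes were not chosen in this way. Of the 11, 1 passed in limma, probe 1 of Ppp2r2b, and of the 450, 18 passed.

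Within phosphatase 2A the delta B56 subunit Ppp2r5d was listed as higher (1.11 ± 0.33, log2, SE) in the same direction as Ppp2r2b. Among targeting subunits of phosphatase 1, Ppp1r10, a nuclear subunit, was listed as lower (-0.57 ± 0.24), opposite to Ppp1r12a. The regulatory subunits of phosphatase 4 also parted, with Ppp4r2 at 0.58 ± 0.26 and Ppp4r3a at -2.56 ± 0.47 in a probe that was dim in both groups (median signal 11.9 in PNFLX and 43.3 in CONTROL). Dusp5, a phosphatase of the nuclear MAP kinase ERK, was at -3.54 ± 0.57 and was dim in PNFLX (median signal 23.6, against 312 in CONTROL). The low molecular weight tyrosine phosphatase Acp1 was at -3.40 ± 0.57, and Dusp11, which acts on RNA, at -0.73 ± 0.33. None of the probes named in this family beside the members passed in limma, and the listing itself chose them by this contrast.

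The 4 kinase lists (cyclin-dependent kinases with cyclins and inhibitors, Abl, Src and related tyrosine kinases, serine and threonine kinases, and receptor tyrosine kinases) had 16 listed probes, 8 as higher and 8 as lower, with a median change of 0.00. As the listing left out small changes, that median follows from the equal counts and does not mean unchanged kinases. The median size of change was 0.78 (log2), against 1.26 over all 450 listed probes. None of the 16 passed in limma. In the list of Cdk17, which also takes in cyclins and inhibitors, the cyclin-dependent kinase inhibitor Cdkn1b was at 0.73 ± 0.32. In the list of Abl1, the Janus kinases Jak2 (-3.35 ± 0.59) and Jak3 (-1.56 ± 0.55), which carry cytokine signals, were listed as lower, opposite to Abl1. Jak2 was dim in PNFLX, with a median signal of 28.8, against 237 in CONTROL. Among serine and threonine kinases and their subunits, Prkag2, the gamma 2 subunit of AMP-activated kinase, was at -3.26 ± 0.78, and Prkar2b, a regulatory subunit of protein kinase A, at -2.79 ± 0.74. Both were dim in PNFLX, with median signals of 11.1 and 25.4, against 72.7 and 113 in CONTROL. The mitophagy kinase Pink1 was at 0.84 ± 0.27, the calcium-dependent kinase Camk4 at 0.66 ± 0.28 and the Hippo pathway kinase Stk3 at 0.63 ± 0.30. Prkcsh (-0.58 ± 0.27) entered the list by its name and encodes a subunit of a glucosidase. The receptor tyrosine kinase Epha7 was at 0.97 ± 0.41.

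**Figure D4:**
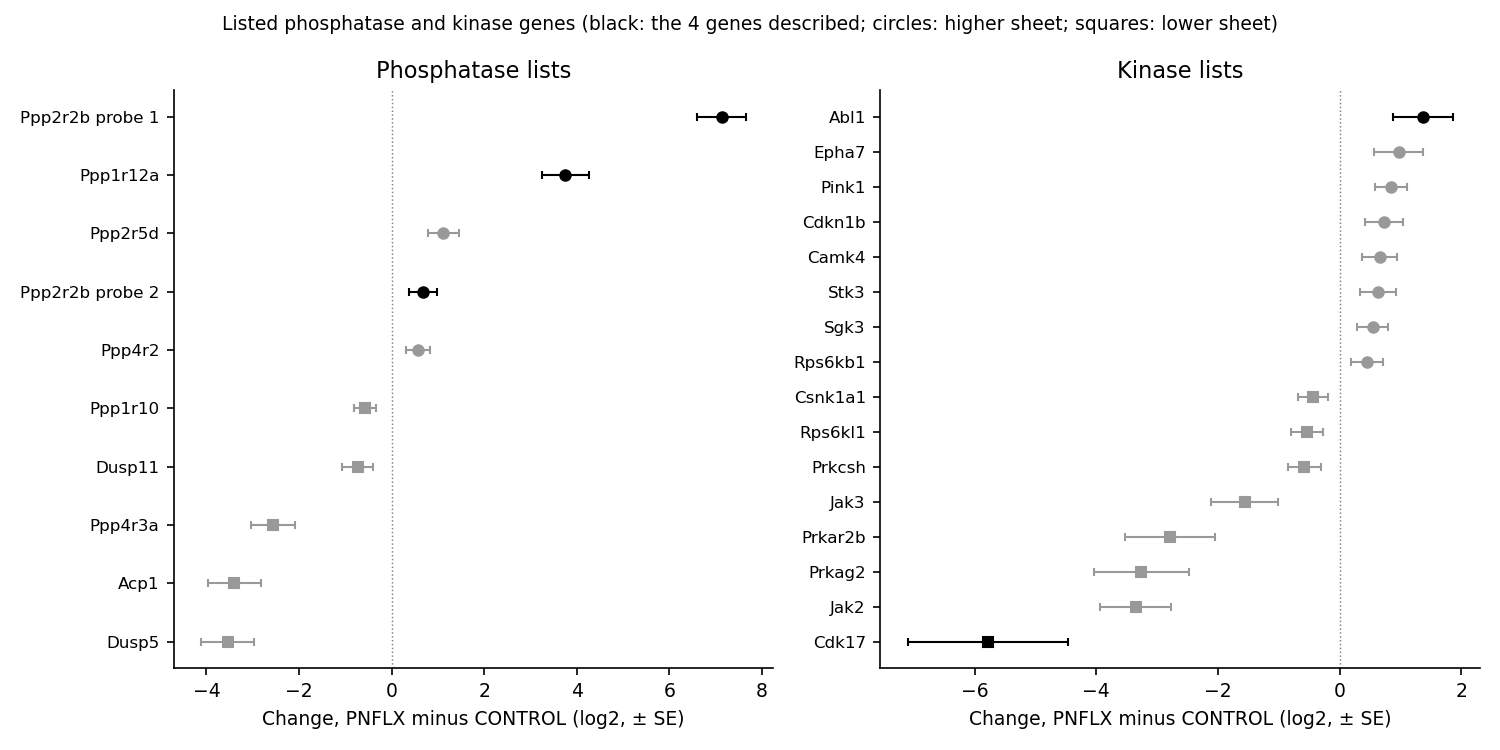
Change (PNFLX minus CONTROL, log2, with SE) of listed probes of the 4 phosphatase lists (left) and the 4 kinase lists (right), with the genes described here in black, circles for probes listed as higher and squares for probes listed as lower. Both families held listed probes on either side of 0, with probe 1 of Ppp2r2b at 7.13 and Cdk17 at -5.78 at the ends.

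The listed genes whose values followed each member most closely over the 8 arrays were named by Pearson r. All were listed for the same contrast on the same arrays, so high values describe a shared group difference and carry no p. For probe 1 of Ppp2r2b they were Bri3, brain protein I3 (r = 0.995), Etfdh, a mitochondrial electron transfer enzyme (0.980), and Ppp1r12a (0.979). For Ppp1r12a they were Tut4, a terminal uridylyltransferase of RNA (0.988), Ppp2r2b, and Arhgap22, a GTPase-activating protein (0.978). Probe 1 of Ppp2r2b and Ppp1r12a were thus each among the 3 listed probes closest to the other, with r = 0.81 between their deviations from the group means. CONTROL 1 was the highest CONTROL array for both, at 1.58 and 1.87 (log2), with the others at most 0.31 and 0.14. How far the 0.81 rests on that array was not tested. Probe 2 of Ppp2r2b had r = 0.58 against Ppp1r12a, and -0.52 between the deviations.

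Probe 2 of Ppp2r2b had other neighbours: Dnajc10, a chaperone of the endoplasmic reticulum (0.950), Oga, which removes O-linked N-acetylglucosamine from proteins (0.939), and the RNA-binding protein Celf6 (0.937). For Cdk17 they were Tmem19 (0.976), the GABA-A receptor subunit Gabrq (0.971) and Tpt1 (0.971), with changes of -1.65, -1.12 and -2.39 (log2), all smaller than that of Cdk17. For Abl1 they were Leprotl1 (0.974), the calcium-binding protein S100a1 (0.956) and the cation channel Trpc6 (0.937). Cdk17 and Abl1 showed little likeness in their deviations within groups (r = 0.20, 8 arrays).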

How the data were processed

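Whole medial prefrontal cortex was measured on custom 1-colour Agilent arrays (Cy3), per the labels. Groups came from sample titles. The sheets number arrays as the source names do, which differ from the titles: PNFLX 4, CONTROL 3 and CONTROL 4 of the titles are PNFLX 5, Control 4 and Control 5 there. Title numbers are used throughout, and values identical to the value table bore out that mapping. The deposited value table holds log2 values, and the CONTROL median of every probe is 0, so each is a difference from it. The authors' sheets give the same log2 values, and, per the file headers, the intensity as Agilent's processed signal, which is background-subtracted. The unadjusted p-value is the authors' own, from a test that the sheets do not name. The software and kind of array scaling: not given in the sources used here. Log2 signal minus log2 value equalled 1 constant per array plus 1 per probe (largest deviation 5.1e-07); signals divided by the array constants are called scaled. No arrays held identical values.

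Every probe of the value table was fitted with limma 3.58.1 (lmFit, eBayes, two-sided) in R 4.3.3, PNFLX minus CONTROL, with no covariate. P-values were adjusted by Benjamini-Hochberg over the 15207 probes and read at 0.05. The fit was tested on simulated data. Alternatives were other normalizations, signal floors, group medians, blocks, array weights, a variance trend, no moderation, a variance filter, a threshold of 0.1 and single arrays left out. A single kinase or Ppp1r12a alone in the contrast was added after seeing the data.

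Of 450 sheet probes, 423 matched RefSeq (GRCr8) by gene ID and 10 by symbol, and the other 17 kept the authors' names. The members, lists and naming rule were chosen with earlier results of these data known. Named were all member probes, up to 6 listed genes per list by size of change, and the 3 probes most like each member. A few results that these rules would name are not reported here.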

Additional observations from a re-analysis of the deposited data

How the results depend on the processing

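The number of members called moved with the fit, and their direction did not in any setting. The choice of the members from this contrast on these arrays largely fixed that direction, so nothing is read from its stability. limma called 18 probes in all and 1 member from the 8 arrays as deposited. Quantile normalization called 10 probes and equal 75th percentiles 4, and equal array medians called 15 probes and 2 members. Without CONTROL 1 and PNFLX 2, limma called 40 probes and 2 members, and 4 members had groups that did not overlap, as did 12.3% of all probes. Taking these arrays as a block called 43 probes and 3 members, and array weights called 150 and 3. A variance trend called 0 probes and 0 members (323 probes at an unadjusted p under 0.05), and without moderation 12 probes were called. A threshold of 0.1 called 25 probes and 2 members. With single arrays left out, 2 to 26 probes and 0 to 2 members were called, 2 to 3 members had groups apart (3.04% to 8.38% of all probes), and the phosphatase minus kinase difference was 5.54 to 6.97 (log2). Without CONTROL 2, CONTROL 3, CONTROL 4 or PNFLX 4 the calls were 2, 3, 4 and 2.

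The phosphatase minus kinase difference, 6.04 over all arrays, was 4.23 with a signal floor of 50. It was 7.65 or 4.43 with Ppp2r2b from probe 1 or probe 2 alone, and 9.61 or 2.47 with Cdk17 or Abl1 as the only kinase. The floors by construction raise the dim signals, those of Ppp2r2b probe 1 and Ppp1r12a in CONTROL and of Cdk17 in PNFLX, and the cause of the other shifts was not tested. The sizes of change of probe 1 of Ppp2r2b and of Ppp1r12a depend on CONTROL signals near the bottom of their arrays. Detection flags were not used, and the part of background in these changes was not tested.

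With the array numbers as a replicate block, limma called 0 probes and 0 members (346 probes at an unadjusted p under 0.05). The deviations of same-numbered arrays correlated at -0.21, -0.67, 0.44 and 0.35. Of the 4 PNFLX arrays, 0 correlated best with the CONTROL array of its own number. No label says what a number stands for, and so few pairs cannot show whether same-numbered arrays shared a litter, day or batch. The numbers here are title numbers, and PNFLX 3 and CONTROL 3 do not share a number in the source names.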

Other observations

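Genes of phosphorylation signalling outside the lists were also named in the authors' sheets, and those given here were chosen after their values were seen. The genes named here did not pass in limma. Cdk2ap1, which binds a cyclin-dependent kinase, was at 3.70 ± 1.20 (log2, PNFLX minus CONTROL, SE, n = 4 per group), with median signals of 549 in PNFLX and 49.3 in CONTROL. Ptpdc1, a protein with a tyrosine phosphatase domain, was at 1.84 ± 0.28. Genes of the protein kinase A pathway were Akap6, an anchor protein, at 1.05 ± 0.43 and Pkia, an inhibitor, at 0.69 ± 0.28, both listed as higher, whereas its regulatory subunit Prkar2b was listed as lower. Of inositol phosphatases, Inpp1 (1.08 ± 0.40) and Inpp4a (0.84 ± 0.34) were listed as higher and Inpp5d (-0.55 ± 0.28) as lower.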
